A study of Homo sapiens with 6 samples.

Results

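The genes described here are the amino acid transporter families of the solute carriers in THP1 cells, a human line of acute monocytic leukaemia. They were chosen by symbol, as protein-coding genes of the SLC1, SLC3, SLC6, SLC7, SLC15, SLC36, SLC38 and SLC43 families. The rule took 65 of the 34905 genes that had a sum in the files, of which 64 are transporter or transporter subunit genes. The last is SLC7A6OS, which lies opposite SLC7A6 and matches the rule by name alone. Of the 65 genes, 37 had enough counts to be tested and 28 were too low to judge.

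Cells take up amino acids through carriers that differ in substrate and in driving force. SLC3A2, the 4F2 heavy chain, carries no amino acid itself: it brings a light chain of the SLC7 family to the surface, such as SLC7A5 (LAT1, which exchanges leucine and other large neutral amino acids) or SLC7A11 (xCT, which brings in cystine against glutamate). SLC1A5 and SLC38A1 load glutamine with sodium, SLC7A1 brings in arginine and lysine, and SLC38A9 and SLC36A1 sit on lysosomes, where amino acid supply is read by mTORC1. Several of these genes are targets of ATF4, the transcription factor that is translated when amino acids run short.

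Polyadenylated RNA was sequenced from 3 groups of THP1 cells with 2 libraries each, numbered 1 and 2 in the titles. The ALKBH5 rescue cells carry the genotype label ALKBH5 rescue, the shALKBH5 cells the label ALKBH5 knock-down, and the shCtrl cells, the control of the hairpin, the label wild-type. ALKBH5 is an RNA demethylase that removes N6-methyladenosine from mRNA. The labels used here do not give the hairpin sequence, the rescue construct or whether the 2 numbers are separate cultures, so every p-value measures only the spread between these libraries.

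Each library held 14534386 to 24857373 estimated counts. ALKBH5 itself followed the replicate number and not the group. It stood at 968, 1003 and 1097 CPM (counts scaled to library size) in the ALKBH5 rescue, shALKBH5 and shCtrl libraries numbered 2, against 13.6, 12.4 and 14.6 CPM in the libraries numbered 1 of the same groups. The library labelled shALKBH5 number 2 therefore had as much ALKBH5 RNA as the other libraries numbered 2, and the library labelled ALKBH5 rescue number 1 as little as the others numbered 1. Because of this, values are given by number as well as by label throughout, and whatever sets the numbers apart cannot be told apart from the ALKBH5 level. Myeloid markers were present in all libraries, with 12 of 12 tested and a summed level of 5010 to 5841 CPM. Markers of other lineages were low: T and NK cell genes summed to 18.7 to 25.2 CPM (2 of 7 tested, CD3D and CD2 at 0), B cell genes to 6.95 to 13.5 CPM (3 of 5 tested), erythroid and megakaryocyte genes to 0.479 to 0.971 CPM (1 of 8 tested, HBB, HBA1, HBA2 and PF4 at 0), and epithelial and fibroblast genes to 1.42 to 2.82 CPM (3 of 8 tested, KRT18 and COL3A1 at 0).

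The families were unevenly used. To compare genes with each other, levels were taken per length, as the deposited TPM values, which correct for transcript length and depth, summed by gene. SLC43A3, which carries purine nucleobases although its family is named for amino acids, had the highest mean level of the 65 genes, 269.9 ± 14.9 TPM (mean ± SD over the 6 libraries). It led in all 6 libraries, and the order behind it depended on the replicate number. SLC3A2 had 139, 142 and 151 TPM in the ALKBH5 rescue, shALKBH5 and shCtrl libraries numbered 2, against 157, 161 and 164 TPM in those numbered 1. SLC38A2 had 157, 142 and 123 TPM in number 2, against 69.9, 81.2 and 85.8 TPM in number 1, and SLC38A10 145, 134 and 141 TPM in number 2, against 90.1, 96.9 and 91.6 TPM in number 1. In number 1, SLC3A2 was second in every library, and in number 2 SLC3A2, SLC38A2 and SLC38A10 lay close together and changed places. SLC1A5 had 127, 125 and 132 TPM in number 2, against 96.5, 101 and 97.2 TPM in number 1, and SLC38A5 55.3, 54.8 and 59.4 TPM in number 2, against 96.7, 98.3 and 102 TPM in number 1. SLC7A5 had 36.1, 35.99 and 34.1 TPM in number 2, against 67.2, 71.3 and 72.6 TPM in number 1. By these gene sums SLC38A5 stood above SLC7A5 in every library, and near SLC1A5 only in number 1. The sums take in short and non-coding transcripts, and the order of genes can depend on them. The coding transcript with the most counts of SLC38A5 had 43.7 TPM in shCtrl number 1 and 31.3 TPM in shCtrl number 2. That of SLC7A5 had 70.99 TPM in shCtrl number 1 and 33.6 TPM in shCtrl number 2, and it was the higher of the pair in every library. SLC7A11 was far lower, at 4.65 ± 1.13 TPM. The summed level of all 65 genes was nearly the same in every library, 2799 to 2986 CPM.

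Most of the SLC6 family, whose members carry neurotransmitters, glycine, taurine and creatine, was near or at background: 6 of its 19 genes were tested, and of these only SLC6A6 (the taurine carrier) and SLC6A8 (the creatine carrier) exceeded a mean of 5 CPM. All 3 SLC43 and both SLC3 genes were tested, as were 9 of 14 SLC7, 7 of 11 SLC38, 5 of 7 SLC1, 3 of 5 SLC15 and 2 of 4 SLC36 genes. The 9 tested genes below a mean of 5 CPM had 3 to 104 counts per library. The 28 genes too low to judge had at most 13 counts in any library and means of at most 0.416 CPM. Of these, 8 were rounded to 0 in all 6 libraries, among them SLC6A3, SLC6A19, SLC7A3, SLC7A4 and SLC38A8. A count of 0 allows up to 3 counts, which is 0.13 to 0.217 CPM depending on the library, counting error only. The other 20 were SLC1A2, SLC1A7, SLC6A2, SLC6A4, SLC6A5, SLC6A11, SLC6A13, SLC6A14, SLC6A17, SLC6A18, SLC7A9, SLC7A10, SLC7A13, SLC15A1, SLC15A5, SLC36A2, SLC36A3, SLC38A3, SLC38A4 and SLC38A11.

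**Figure D1:**
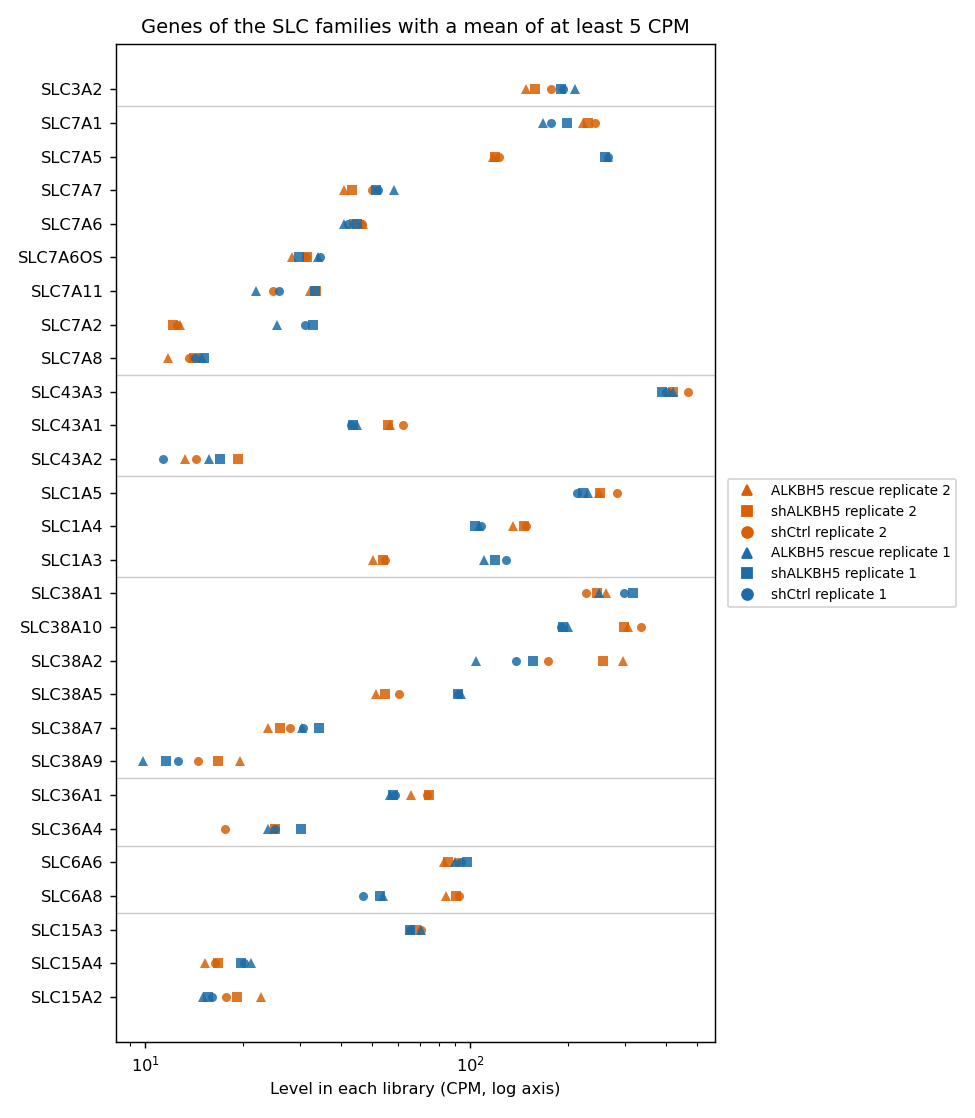
Levels of the 28 genes that averaged 5 CPM or more, in CPM on a log axis, with 1 point per library; colour gives the replicate number (number 2 and number 1) and the marker shape gives the label (ALKBH5 rescue, shALKBH5, shCtrl). The numbers are separate for SLC7A5 (118 to 122 CPM in number 2, 259 to 266 CPM in number 1) and overlap for SLC7A11.

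Between labelled groups no gene of the families passed the test. In edgeR's quasi-likelihood test without a replicate block, 0 of 37 members were called in each of the 3 comparisons at an adjusted p under 0.05, and of all 14497 genes tested 0% were called in each. At an unadjusted p under 0.05, edgeR gave 1, 1 and 0 members, and 43, 37 and 46 of all genes, for ALKBH5 rescue against shALKBH5, shALKBH5 against shCtrl and ALKBH5 rescue against shCtrl. DESeq2 called 0 genes in each. With the replicate number as a block, edgeR again called 0 members in each, beside 0% of all genes for ALKBH5 rescue against shALKBH5, 0.0069% for shALKBH5 against shCtrl and 0.0069% for ALKBH5 rescue against shCtrl. The comparisons share libraries, so their values below are not independent of each other.

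SLC7A11, the cystine carrier, is the marker gene with the widest difference between labels. It stood at 33.5 and 33.2 CPM in the shALKBH5 libraries numbered 2 and 1, against 24.6 and 25.7 CPM in the shCtrl libraries, a log2 difference of 0.44 within number 2 and 0.36 within number 1. The ALKBH5 rescue libraries held 32.2 and 21.9 CPM: the library numbered 2 lay with shALKBH5, and the library numbered 1 below both shCtrl libraries. In edgeR the difference on the log2 scale was 0.41 (SE 0.24, adjusted p = 1.00) for shALKBH5 against shCtrl and -0.30 (SE 0.24, adjusted p = 1.00) for ALKBH5 rescue against shALKBH5. With the replicate block the SE fell to 0.17 for shALKBH5 against shCtrl, and the edgeR adjusted p was 0.978. Leaving out 1 library at a time moved the difference between ALKBH5 rescue and shALKBH5 over -0.62 to -0.053, the within-number values being -0.05 in number 2 and -0.59 in number 1.

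SLC43A2, the LAT4 carrier of large neutral amino acids, had its highest levels in the shALKBH5 libraries. It stood at 19.3 and 17.02 CPM in the shALKBH5 libraries numbered 2 and 1, against 14.4 and 11.4 CPM in the shCtrl libraries, and 13.3 and 15.7 CPM in the ALKBH5 rescue libraries. Both shALKBH5 libraries lay above all others, and edgeR estimated the difference at 0.49 (SE 0.23, adjusted p = 1.00) on the log2 scale against shCtrl. SLC6A20, a proline carrier, was high in both shALKBH5 libraries too, with 0.945 and 1.26 CPM against 0.213 and 0.434 CPM in shCtrl and 0.185 and 0.478 CPM in ALKBH5 rescue. These levels rest on few reads, and its difference of 1.78 on the log2 scale (SE 0.64) did not pass in edgeR (adjusted p = 1.00). SLC6A20 passed the low-count filter only through its shALKBH5 libraries, so its high level there decided that it was tested. Without the block it was the only member with an unadjusted edgeR p under 0.05 for shALKBH5 against shCtrl, and likewise for ALKBH5 rescue against shALKBH5. SLC1A6, the glutamate carrier EAAT4, differed by 0.52 on the log2 scale for shALKBH5 against shCtrl. With the replicate block, the SE of this comparison was 0.17 for SLC43A2, 0.51 for SLC6A20 and 0.26 for SLC1A6. The edgeR adjusted p was then 0.978 for each. The genes of smallest p in the lower direction, SLC43A3, SLC7A6OS and SLC7A7, differed by -0.10, -0.10 and -0.11, which is close to the median absolute difference of all genes, 0.107.

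SLC7A5 and SLC3A2 were not called between labels. SLC7A5 had 119 and 259 CPM in the shALKBH5 libraries numbered 2 and 1, against 122 and 266 CPM in shCtrl, and 118 and 266 CPM in ALKBH5 rescue. The labels differed little within a number, and the numbers did not overlap. SLC3A2 differed by -0.16 within number 2 and -0.02 within number 1 for shALKBH5 over shCtrl on the log2 scale, and by -0.26 and 0.12, with opposite signs, for ALKBH5 rescue over shCtrl. For ALKBH5 rescue against shALKBH5, on the same scale, the genes of smallest p were SLC1A1 (0.31), SLC15A2 (0.12) and SLC7A7 (0.07) among those above 0, and SLC6A20 (-1.66), SLC43A2 (-0.32) and SLC7A11 among those below. For ALKBH5 rescue against shCtrl they were SLC1A6 (0.30), SLC38A6 (0.22) and SLC36A4 (0.19) above, and SLC6A12 (-0.48), SLC36A1 (-0.12) and SLC6A6 (-0.09) below.

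**Figure D2:**
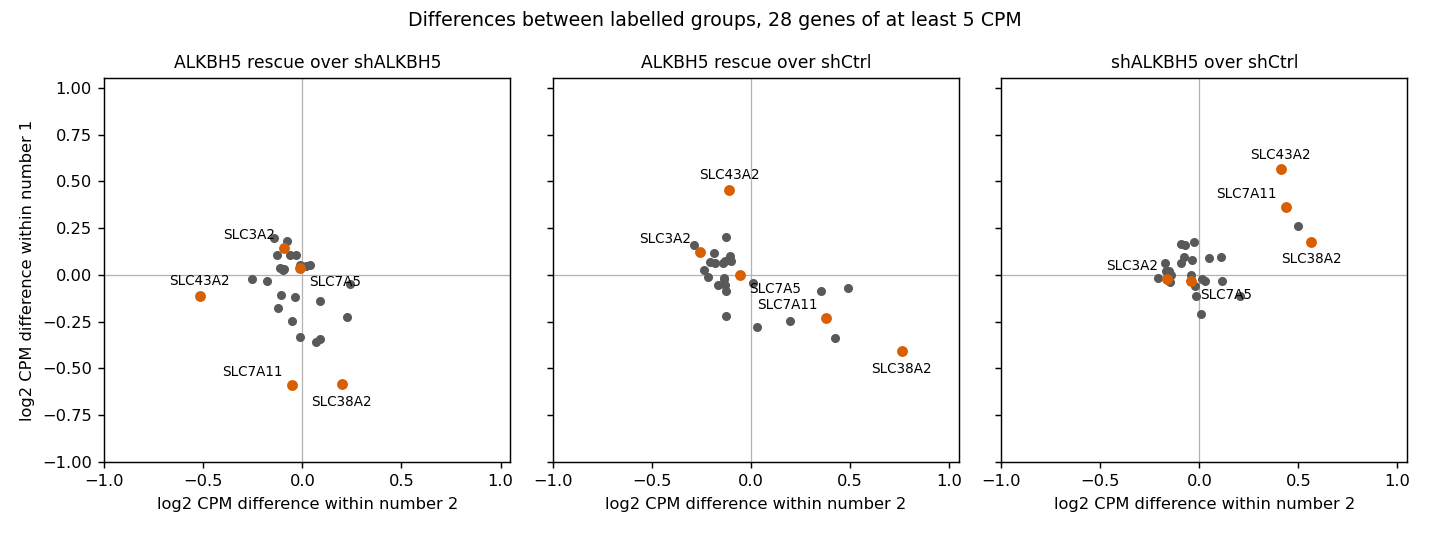
Differences between labelled groups in log2(CPM + 0.5) for the 28 genes that averaged 5 CPM or more, with the difference within number 2 on the x axis and within number 1 on the y axis, and 1 point per gene. SLC43A2 and SLC7A11 lie in the upper right for shALKBH5 over shCtrl, and SLC38A2 lies at 0.76 and -0.41 for ALKBH5 rescue over shCtrl.

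Of the 28 genes that averaged 5 CPM or more, the label difference had opposite signs in the 2 numbers in 17 (60.7%) for ALKBH5 rescue against shALKBH5, in 14 (50%) for shALKBH5 against shCtrl and in 20 (71.4%) for ALKBH5 rescue against shCtrl. Over all 10808 genes at that level the shares were 56.6%, 42.1% and 69.3%, so the members lay near the background.

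Between the replicate numbers, 19 of the 37 tested members were called (51.4%), against 45.4% of all genes tested, so the share lay near the background. In number 2, 12 members were higher (22.8% of all genes were called higher) and 7 were lower (22.6% of all genes). The median absolute log2 fold change was 0.333 over the members and 0.344 over all genes. Past a 2-fold change, 2 members were higher (4% of all genes) and 3 were lower (3.86% of all genes). The 2 higher members, SLC6A9 and SLC6A16, had few counts and passed the low-count filter through number 2, where they are high. The fold changes that follow are number 2 over number 1 on the log2 scale. The summed B cell markers also moved with the number, at 12.1, 11.3 and 13.5 CPM in the ALKBH5 rescue, shALKBH5 and shCtrl libraries numbered 2, against 6.95, 7.03 and 8.68 CPM in those numbered 1, and their part in the results was not tested. In these bulk libraries, fewer cells with a transcript and less of it per cell cannot be told apart.

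**Figure D3:**
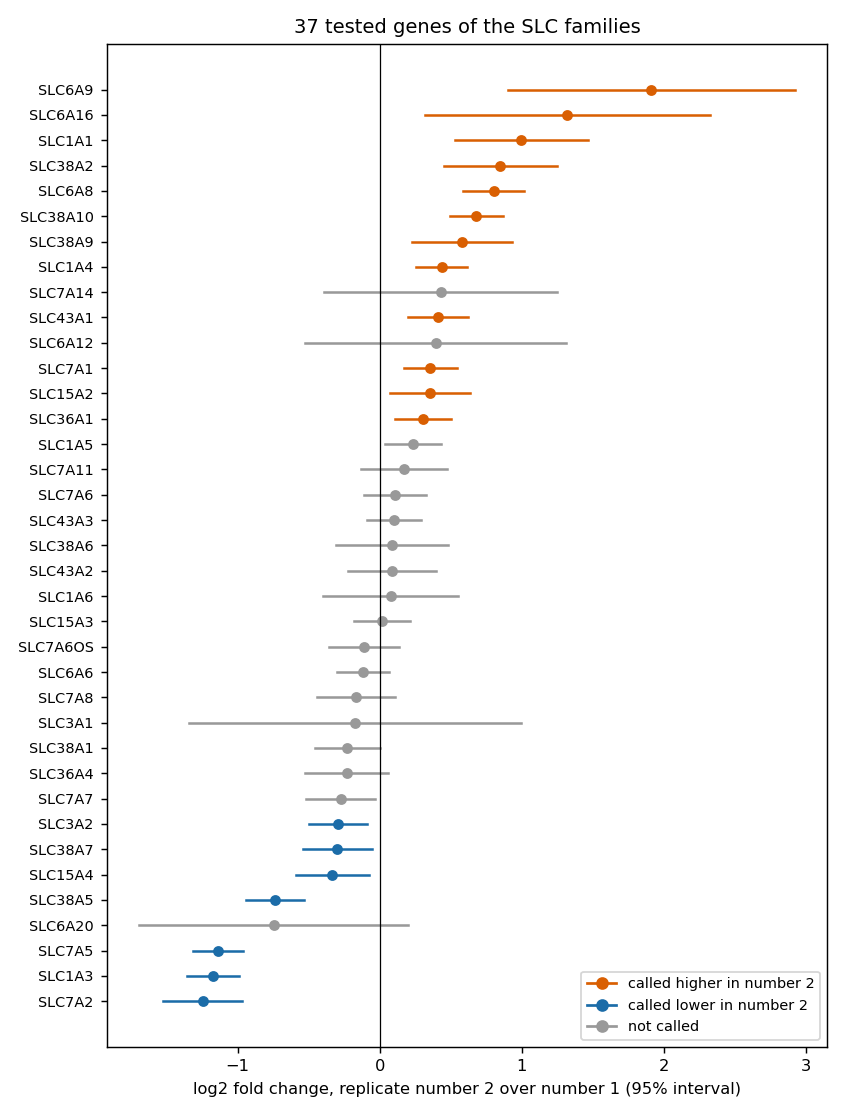
The edgeR log2 fold change of number 2 over number 1 for the 37 tested genes, with 95% intervals of the single gene; orange genes were called higher and blue genes lower in number 2 at an adjusted p under 0.05. SLC7A5, SLC1A3 and SLC7A2 stand lowest and SLC6A9 highest, with a wide interval; the intervals of SLC1A5 and SLC7A7 miss 0 although neither passed after adjustment.

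Among the surface heterodimers, the light chain SLC7A5 fell and the heavy chain SLC3A2 fell less. SLC7A5 (chr16:87830023-87869488, minus strand, hg38) stood at 118, 119 and 122 CPM in the ALKBH5 rescue, shALKBH5 and shCtrl libraries numbered 2, against 266, 259 and 266 CPM in those numbered 1. The numbers did not overlap and the libraries of each lay close together. The difference on the log2 scale was -1.14 (SE 0.08, edgeR adjusted p = 1.26e-05). SLC3A2 (chr11:62856102-62888875, plus strand) had 149, 159 and 178 CPM in number 2 in the same group order, against 210.0, 190.05 and 193 CPM in number 1, and fell (-0.29 on the log2 scale, SE 0.09, edgeR adjusted p = 0.0263). SLC7A11 (chr4:138164097-138242349, minus strand) had 32.2, 33.5 and 24.6 CPM in number 2, against 21.9, 33.2 and 25.7 CPM in number 1. The numbers overlapped and it was not called (0.17, SE 0.14, edgeR adjusted p = 0.336).

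The other light chains were not called. SLC7A7 (y+LAT1, which exports cationic amino acids) had 40.8, 43.1 and 49.97 CPM in number 2, against 58.2, 51.4 and 52.1 CPM in number 1, and SLC7A8 (LAT2) had 11.7, 14.1 and 13.6 against 14.9, 15.1 and 14.2 CPM. Neither passed in edgeR (adjusted p = 0.0625 for SLC7A7 and 0.296 for SLC7A8). SLC7A6 (y+LAT2) had 46.9, 43.98 and 46.5 CPM in number 2, against 40.7, 44.9 and 41.9 CPM in number 1, and SLC7A6OS 28.4, 31.3 and 31.2 against 34.1, 29.7 and 34.4 CPM. The last pair share 3371 exonic bases on opposite strands, and the sources used here do not say that strand was used in counting, so their reads may be exchanged. Per length, the 5 expressed light chains summed to 113, 120 and 119 TPM in the ALKBH5 rescue, shALKBH5 and shCtrl libraries numbered 2, against 144, 163 and 167 TPM in those numbered 1. SLC7A5 made up 32.1, 29.9 and 28.7% of that sum in number 2, against 46.6, 43.7 and 43.4% in number 1, while SLC3A2 stood at 139, 142 and 151 TPM, against 157, 161 and 164 TPM. The heavy chain exceeded the light chain sum in every library numbered 2 and in ALKBH5 rescue number 1. It was close to that sum in the shALKBH5 and shCtrl libraries numbered 1. The sum includes SLC7A6 with the limit just given. It also takes in short and non-coding transcripts, and the SLC7A5 share and the order of heavy and light chains depend on them. In shCtrl number 1, SLC7A6 entered at 34.1 TPM, with 10.35 TPM from the retained intron SLC7A6-212 and 2.44 TPM from the coding SLC7A6-201. SLC7A7 entered at 48.2 TPM, with 19.04 TPM from its leading transcript, and SLC7A5 at 72.6 TPM, with 70.99 TPM from its own.

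The promoter of SLC7A5 is shown because it holds the palindrome CACGTG, the E-box bound by MYC and related factors, in a gene with one of the widest falls. Windows of 300 bases, 250 before to 50 after the start, were taken from RefSeq (GRCh38.p14), where 49 of the 65 genes matched, some with several starts and so several windows. CACGTG, which reads the same on both strands, occurred in 7.26% of all 35116 windows and in 10 of 71 windows of the members (14.1%). The window lies at chr16:87869458-87869757 on the minus strand, and the capitals mark the motif.
SLC7A5: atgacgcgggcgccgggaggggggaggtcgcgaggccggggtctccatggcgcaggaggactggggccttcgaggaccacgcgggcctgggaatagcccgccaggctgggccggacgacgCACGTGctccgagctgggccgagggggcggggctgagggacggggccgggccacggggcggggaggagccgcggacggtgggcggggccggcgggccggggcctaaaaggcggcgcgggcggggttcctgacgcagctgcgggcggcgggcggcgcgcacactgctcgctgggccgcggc
The other genes with the motif were SLC1A5, SLC1A7, SLC6A16, SLC7A7, SLC7A8, SLC36A1, SLC38A5, SLC38A7 and SLC43A1, of which some were higher in number 2, some lower and some not called. A match says only that these letters stand in the window.

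The cationic carriers went apart. SLC7A2 (CAT2, the arginine carrier that macrophages induce) had 12.8, 12.2 and 12.5 CPM in the ALKBH5 rescue, shALKBH5 and shCtrl libraries numbered 2, against 25.5, 32.8 and 31.02 CPM in those numbered 1, the widest fall of the members called (-1.25, SE 0.12, edgeR adjusted p = 7.55e-05). SLC7A1 (CAT1, the general arginine and lysine carrier) had 222, 229.7 and 242 CPM in number 2, against 167, 198 and 177 CPM in number 1. It rose by 0.36 on the log2 scale (SE 0.08, edgeR adjusted p = 0.00705). SLC7A14 was below 1 CPM in every library and was not called.

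Of the SLC43 family only SLC43A1 (LAT3, a carrier of large neutral amino acids) was called, with 56.5, 55.8 and 62.3 CPM in number 2, against 44.8, 43.4 and 42.8 CPM in number 1 (0.41, SE 0.09, edgeR adjusted p = 0.00629). SLC43A2 had 13.3, 19.3 and 14.4 CPM in number 2, against 15.7, 17.02 and 11.4 CPM in number 1, and SLC43A3 412, 422 and 467 against 419.7, 390.4 and 401 CPM. Both overlapped between the numbers and neither was called.

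In the SLC1 family, which carries glutamate in some members and small neutral amino acids in others, the more abundant glutamate carrier SLC1A3 fell and the neutral carrier SLC1A4 rose. SLC1A3 (EAAT1) had 50.1, 54.01 and 54.8 CPM in the ALKBH5 rescue, shALKBH5 and shCtrl libraries numbered 2, against 111, 119 and 129 CPM in those numbered 1 (-1.17, SE 0.08, edgeR adjusted p = 1.42e-05). SLC1A4 (ASCT1, for alanine, serine and cysteine) had 135, 146 and 149 CPM in number 2, against 106, 103 and 108 CPM in number 1. It rose by 0.44 (SE 0.08, edgeR adjusted p = 0.00191). SLC1A5 (ASCT2, for glutamine) had 249, 251 and 283 CPM in number 2, against 230.35, 222 and 212 CPM in number 1. Its libraries did not overlap, yet its edgeR adjusted p was 0.0517 (log2 fold change 0.23, SE 0.09). SLC1A1 (EAAT3, for glutamate and cysteine) was low, at 5.23, 3.94 and 3.94 CPM in number 2, against 2.13, 1.94 and 2.53 CPM in number 1. It rose by 1.00 (SE 0.21, edgeR adjusted p = 0.00400). SLC1A6 was not called.

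The windows below are shown because they are the only 3 among those of the members that hold TGATGCAA, the composite element through which ATF4 with a C/EBP partner binds in other amino acid response genes. The letters were searched on both strands, where the opposite strand reads TTGCATCA, and share no overlap with the E-box. They occurred in 304 of all 35116 windows (0.866%) and in 3 of 71 windows of the members (4.23%). Each is 1 of several RefSeq windows of its gene and belongs to an alternative start, not to the outermost end of the annotated gene. For SLC1A4 it is 1 of 2 windows (chr2:64989149-64989448, plus strand) and lies inside the gene (chr2:64988477-65023865). For SLC1A5 it is 1 of 3 (chr19:46784765-46785064, minus strand), inside the gene (chr19:46774883-46788594), and its E-box is in another window. For SLC1A3 it is 1 of 3 (chr5:36596338-36596637, plus strand), upstream of the gene as annotated in GENCODE (chr5:36606355-36688334). Which start the cells used was not tested. Windows are RefSeq, GRCh38.p14, and the capitals mark the motif, which in SLC1A4 stands on the opposite strand.
SLC1A4: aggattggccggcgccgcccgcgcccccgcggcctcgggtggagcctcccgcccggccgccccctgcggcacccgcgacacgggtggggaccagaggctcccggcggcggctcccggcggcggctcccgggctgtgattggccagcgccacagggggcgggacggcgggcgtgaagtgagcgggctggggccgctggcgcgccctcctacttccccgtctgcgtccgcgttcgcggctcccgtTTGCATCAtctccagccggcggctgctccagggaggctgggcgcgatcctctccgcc
SLC1A5: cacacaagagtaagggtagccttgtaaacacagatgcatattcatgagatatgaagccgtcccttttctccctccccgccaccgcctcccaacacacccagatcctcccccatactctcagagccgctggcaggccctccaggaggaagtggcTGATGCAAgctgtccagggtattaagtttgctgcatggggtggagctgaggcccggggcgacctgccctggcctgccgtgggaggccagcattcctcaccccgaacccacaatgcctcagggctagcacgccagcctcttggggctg
SLC1A3: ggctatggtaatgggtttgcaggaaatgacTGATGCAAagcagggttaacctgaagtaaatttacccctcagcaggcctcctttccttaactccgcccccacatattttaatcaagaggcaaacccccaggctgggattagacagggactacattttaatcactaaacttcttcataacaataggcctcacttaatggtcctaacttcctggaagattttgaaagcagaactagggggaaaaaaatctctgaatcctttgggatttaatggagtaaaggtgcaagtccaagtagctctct
Between the numbers, SLC1A4 was called higher, SLC1A3 was called lower and SLC1A5 was not called. A link between the letters and these levels was not tested.

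The sodium-coupled neutral carriers of the SLC38 family had 3 genes higher and 2 lower of 7 tested. SLC38A2 (SNAT2, the system A carrier known to be induced by amino acid shortage) had 294, 256 and 173 CPM in the ALKBH5 rescue, shALKBH5 and shCtrl libraries numbered 2, against 104, 156 and 138 CPM in those numbered 1. The numbers did not overlap, but the labels within a number spread widely (0.85, SE 0.18, edgeR adjusted p = 0.00379). SLC38A10 had 305, 297 and 334 CPM in number 2, against 200.3, 193 and 190.0 CPM in number 1 (0.68, SE 0.08, edgeR adjusted p = 2.11e-04). SLC38A9, the lysosomal arginine sensor, had 19.6, 16.7 and 14.5 CPM in number 2, against 9.86, 11.6 and 12.6 CPM in number 1 (0.58, SE 0.16, edgeR adjusted p = 0.0136).

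SLC38A5 (SNAT5, which moves glutamine and histidine) fell. It had 51.2, 54.6 and 60.4 CPM in number 2, against 93.3, 91.5 and 91.6 CPM in number 1 (-0.74, SE 0.09, edgeR adjusted p = 2.17e-04). SLC38A7 (SNAT7, a lysosomal glutamine exporter) had 23.8, 25.98 and 27.8 CPM in number 2, against 30.3, 34.3 and 30.6 CPM in number 1 (-0.30, SE 0.11, edgeR adjusted p = 0.0472). SLC38A1 (SNAT1), one of the more abundant carriers, had 261, 246 and 228 CPM in number 2, against 249.7, 317 and 297 CPM in number 1, with overlap, and was not called. SLC38A6, below 5 CPM on average, was not called either; it shares 245 exonic bases with TRMT5 on the opposite strand, whose counts are higher.

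Of the SLC36 carriers, SLC36A1 (PAT1, on lysosomes) had 65.6, 74.5 and 73.8 CPM in number 2, against 56.4, 57.7 and 58.6 CPM in number 1 (0.31, SE 0.09, edgeR adjusted p = 0.0174). SLC36A4, a carrier of proline and tryptophan, had 24.9, 25.1 and 17.6 CPM in number 2, against 23.8, 30.2 and 25.1 CPM in number 1. It was not called and its lowest library was shCtrl number 2. Among the peptide and histidine carriers, SLC15A2 (PEPT2) had 22.8, 19.2 and 17.7 CPM in number 2, against 15.03, 15.6 and 15.98 CPM in number 1, and rose by 0.35 (SE 0.13, edgeR adjusted p = 0.0442). SLC15A4 (PHT1, an endolysosomal carrier needed for signalling by nucleic acid sensors) had 15.3, 16.7 and 16.4 CPM in number 2, against 21.2, 19.7 and 20.1 CPM in number 1, and fell (-0.33, SE 0.12, edgeR adjusted p = 0.0391). SLC15A3 (PHT2) had 65.3, 68.2 and 70.3 CPM in number 2, against 70.3, 65.4 and 65.4 CPM in number 1, and was not called.

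In the SLC6 family the creatine carrier SLC6A8 had 84.5, 90.3 and 92.2 CPM in the ALKBH5 rescue, shALKBH5 and shCtrl libraries numbered 2, against 53.8, 52.7 and 46.6 CPM in those numbered 1 (0.80, SE 0.09, edgeR adjusted p = 1.81e-04). The taurine carrier SLC6A6 had 83.1, 85.4 and 91.2 CPM in number 2, against 90.003, 97.9 and 93.6 CPM in number 1, with overlap, and was not called. SLC6A9, the glycine carrier GlyT1, had only 25, 26 and 21 counts in number 2, against 7, 3 and 9 counts in number 1. It was called higher (1.91, SE 0.45, edgeR adjusted p = 0.00732), but 404 of its exonic bases lie opposite CCDC24, whose reads cannot be told apart from its own without strand. SLC6A16, an orphan carrier, had 12, 15 and 11 counts in number 2, against 5, 6 and 4 counts in number 1, and was called higher (1.32, SE 0.45, edgeR adjusted p = 0.0357). Both SLC6A9 and SLC6A16 passed the low-count filter through their number 2 libraries, where they are high, so the filter favoured this direction for them. SLC6A12, SLC6A20 and, among the heavy chains, SLC3A1 were not called. SLC3A1 has the same limit, with 1923 exonic bases opposite the far more abundant PREPL.

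The calls differ in how well they held. Some of the settings leave out 1 library. With group in the fit, the library left alone in its label then has no weight in the number difference. Leaving out either library of a label was therefore nearly the same check. Another setting is a filter of 1 CPM in 2 libraries. SLC6A9 reached 1 CPM only in number 2, where it is high, so that setting is no independent check on it. Of the 19 members called, 10 were called in every one of 11 other settings: SLC7A5, SLC1A3, SLC7A2, SLC38A5, SLC6A9, SLC6A8, SLC38A10, SLC38A2, SLC1A1 and SLC38A9. The other 9, among them SLC3A2, SLC7A1 and SLC1A4, were not called in at least 1, and SLC6A16 was called in 2 of 10 and SLC15A4 in 3 of 11. Without shALKBH5 number 1 or without shALKBH5 number 2, 10 members were called, of 3919 and 3909 genes in all.

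Some of the differing genes also differed in which transcript held their estimated counts, in 3 genes chosen after their values were seen. SLC38A10-202, a coding transcript, held 70.0, 70.9 and 72.1% of the counts of SLC38A10 in the ALKBH5 rescue, shALKBH5 and shCtrl libraries numbered 2, against 55.1, 48.6 and 53.6% in those numbered 1. SLC6A8-201, also coding, held 72.3, 68.8 and 69.4% in number 2, against 58.9, 60.5 and 54.1% in number 1. SLC38A9-208, a processed transcript that the annotation does not call coding, held 17.6, 22.7 and 27.2% of SLC38A9 in number 2, against 45.4, 43.4 and 46.3% in number 1. In each of these genes the shares of the numbers did not overlap, and no test was made. The share of the leading transcript also did not overlap for SLC7A1, SLC7A2, SLC15A2, SLC38A5 and SLC6A6, the last of which was not called. Several of these gaps were narrow. For SLC7A1 the share was 99.79 to 99.83% in number 2, against 99.18 to 99.57% in number 1. For SLC15A2 it was 43.85 to 58.64% against 58.76 to 62.61%, and for SLC7A2 86.1 to 91.04% against 69.81 to 85.31%. The gap was wider for SLC38A5, with 76.67 to 80.33% in number 2, against 70.96 to 72.08% in number 1. SLC6A6-210 held 91.6, 89.0 and 93.75% in number 2, against 80.3, 80.25 and 76.3% in number 1. How often such shares do not overlap between the numbers over all genes was not computed. Of the 28 genes that averaged 5 CPM or more, 6 had a leading transcript with over 90% of the counts in every library, and in 27 the leading transcript was coding.

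**Figure D4:**
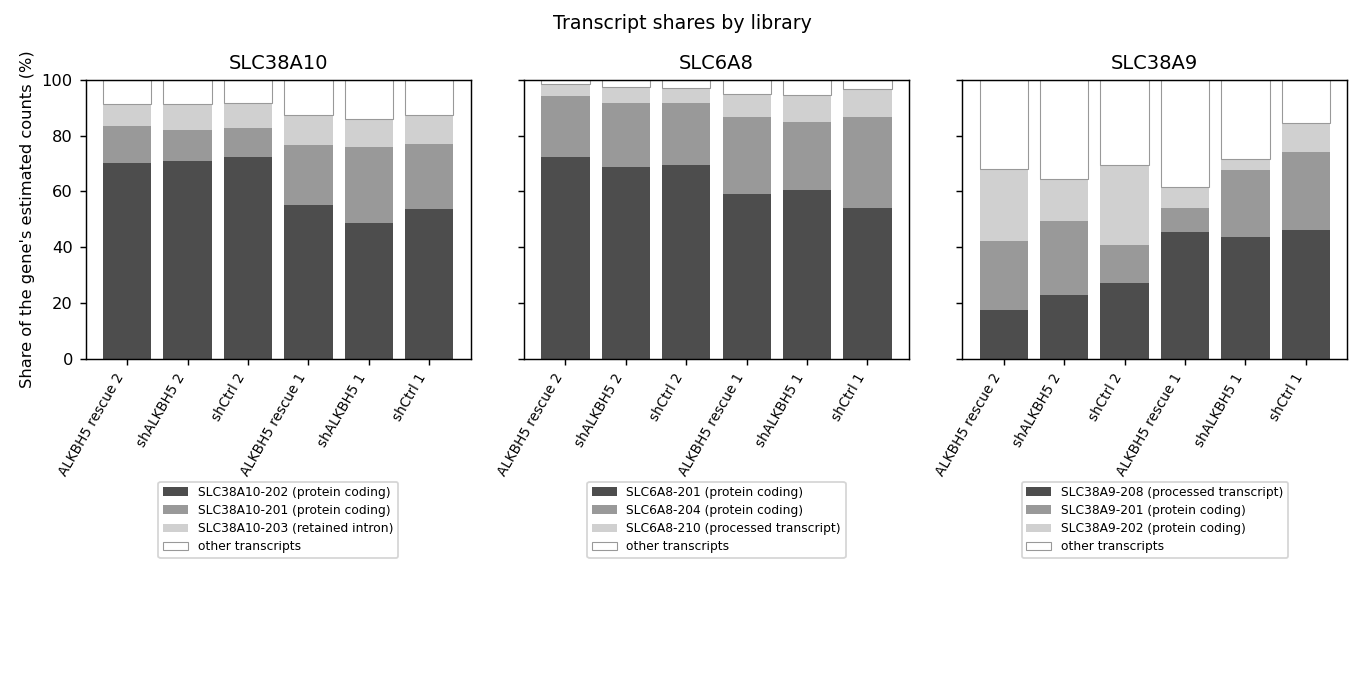
Share of each gene's estimated counts, in percent, by transcript for SLC38A10, SLC6A8 and SLC38A9, with 1 bar per library and the libraries numbered 2 left of those numbered 1. The coding SLC38A10-202 and SLC6A8-201 fill more of each bar in number 2, and the processed transcript SLC38A9-208 fills less.

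The amino acid response genes are a list of ATF4 targets and partners, chosen with earlier results of these data known. In the same comparison 12 of 16 were higher in number 2 (22.8% of all genes) and 1 was lower (22.6% of all genes). In all, 81.2% of the list were called, against 45.4% of all genes. The median log2 fold change was 0.408 over the list and 0.0147 over all genes. The list as a set was not tested. SESN2, which binds leucine and restrains mTORC1, had 40.5, 42.2 and 46.2 CPM in the ALKBH5 rescue, shALKBH5 and shCtrl libraries numbered 2, against 13.2, 12.2 and 11.7 CPM in those numbered 1 (1.79, edgeR adjusted p = 1.03e-05). CHAC1, which degrades glutathione, had 23.6, 26.6 and 28.5 CPM in number 2, against 7.73, 6.46 and 7.96 CPM in number 1 (1.82, edgeR adjusted p = 1.56e-05). ASNS, asparagine synthetase, had 28.5, 29.5 and 30.7 CPM in number 2, against 12.9, 12.8 and 13.5 CPM in number 1 (1.18, edgeR adjusted p = 5.19e-05). All 3 rose without overlap between the numbers, as did STC2, a secreted glycoprotein, by 0.98 (edgeR adjusted p = 1.58e-04). CEBPB, a C/EBP partner, was the 1 called lower (-0.55, edgeR adjusted p = 0.0159). Some carriers that other cells raise in this response were picked as examples, without a set rule. Of these examples, SLC38A2, SLC7A1 and SLC1A4 were higher, SLC7A11 was not called, and SLC7A5 and SLC3A2 were lower.

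**Figure D5:**
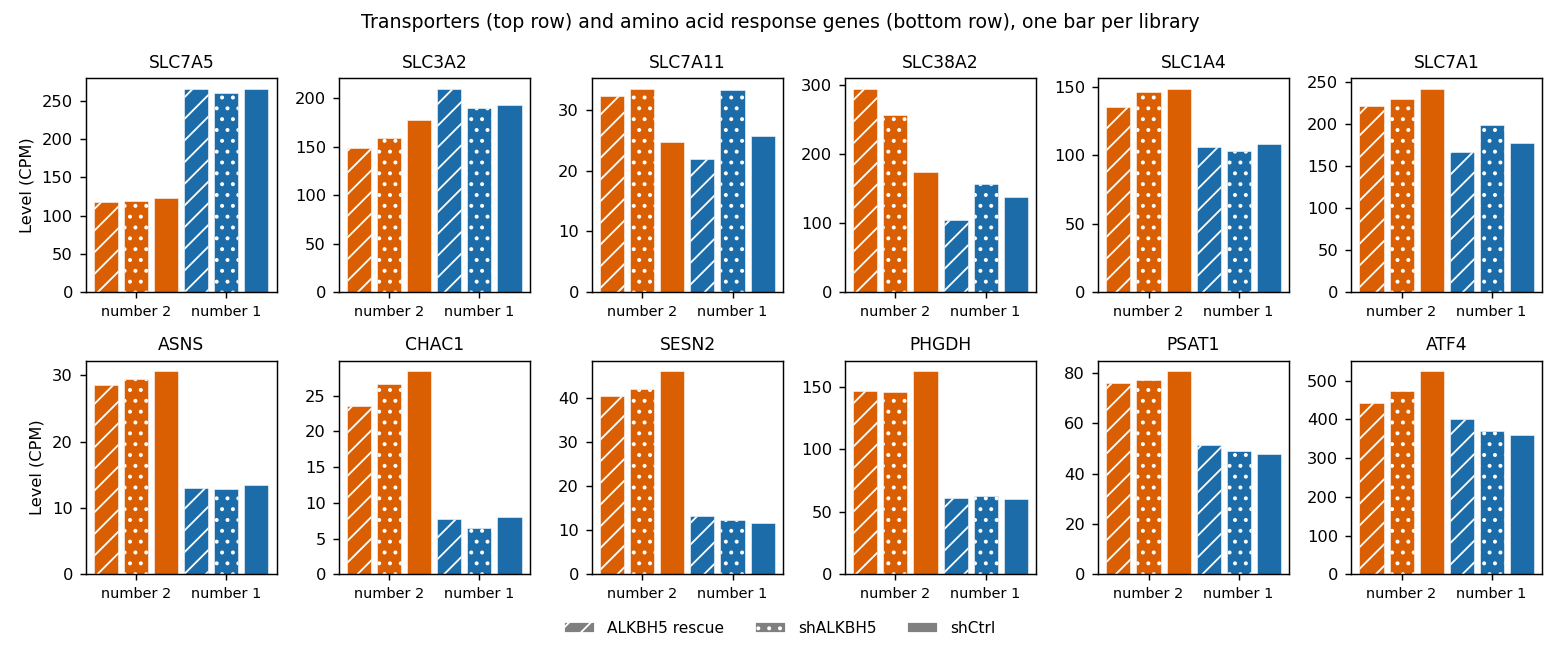
Levels in CPM, on linear axes that start at 0 and differ between panels, of 6 transporter genes (top) and 6 amino acid response or serine synthesis genes (bottom), with 1 bar per library; orange bars are number 2, blue bars number 1, and the hatching gives the label. SESN2, CHAC1 and ASNS are higher in all libraries numbered 2, and SLC7A5 is lower in them.

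Neighbouring lists were mixed. Of 9 serine and one-carbon genes, 4 were higher and 2 lower in number 2 (66.7% called, against 45.4% of all genes): PHGDH, the entry enzyme of serine synthesis, rose by 1.31, ALDH1L2 by 1.23 and PSAT1 by 0.66, while MTHFD1L fell (-0.42). Of 11 glutathione and cystine genes, 3 were higher and 4 lower (63.6% called), with CBS at 0.86, GSR at 0.71, GCLM, the regulatory subunit of glutathione synthesis, at -0.97 and GGT5 at -0.90. Of 23 genes of amino acid sensing by mTORC1, 3 were higher and 5 lower (34.8% called), with LAMTOR1 at -0.67, NPRL3 at -0.60, RRAGA at -0.47 and RPTOR at -0.35. In each of these lists some genes rose and others fell. Of 10 tested genes of glutamine use, 2 were higher and 3 lower (50% called), with GOT2 at 0.58, PPAT at -0.57, GLUD1 at -0.42 and CAD at -0.40. Of 10 tested genes of branched-chain amino acid and arginine use, 3 were higher and 5 lower (80% called, close to the share in the response list), with ODC1, the entry enzyme of polyamine synthesis, at -0.78, BCAT2 at -0.69, BCKDHA at -0.43 and BCAT1 at -0.55. Between labelled groups, 0 genes of these lists were called in edgeR without the replicate block, and 0 also had an unadjusted p under 0.05. That fit gave an unadjusted p under 0.05 to few of all 14497 genes. These were 43 for ALKBH5 rescue against shALKBH5, 37 for shALKBH5 against shCtrl and 46 for ALKBH5 rescue against shCtrl. The absence of such genes therefore says little about the lists.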

How the data were processed

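Polyadenylated RNA of THP1 cells was sequenced in 6 libraries, 2 per label. Per the submitters' processing notes, kallisto 0.43.1 and hg38 were used; their roles are not stated there. The deposited files hold estimated counts and TPM per transcript, as kallisto gives them. Counts were summed per gene through GENCODE release 29 (163714 of 179973 transcripts matched; the unmatched held 3.13 to 3.32% of counts) and rounded to whole numbers. The deposited TPM values were summed per gene only to compare levels between genes. CPM is a count over the TMM-adjusted total of tested genes.

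Genes were filtered with filterByExpr (minimum count 10) and tested with edgeR 4.0.16 in R 4.3.3 by the quasi-likelihood test, Benjamini-Hochberg adjusted over 14497 genes at 0.05. Label comparisons used all 6 libraries without a block (3 residual degrees of freedom); the number comparison had group as a covariate (2). Alternatives were DESeq2 1.42.0, RLE size factors, no filter, a filter of 1 CPM in 2 libraries, the replicate block (label comparisons), no group term (number comparison) and leaving out each library. Differences within a number used log2(CPM + 0.5). The fit was tested on simulated data. Same-numbered libraries deviated together from their group means (correlation 0.597 to 0.727), so the numbers pair the libraries; the label values printed are nevertheless from the fit without the block, as designed, and the blocked fit is the alternative.

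The markers and every member with a mean of at least 5 CPM are given by library; for each label comparison the 3 members of smallest p per direction are named, for the numbers every called member, and of each pathway list up to 4 genes by p. Members and lists were chosen with earlier results of these data known. No source used here states whether counting used strand. Some single-gene results are not reported here.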

Additional observations from a re-analysis of the deposited data

Results flagged for a closer look

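For SLC38A2, the difference of ALKBH5 rescue over shCtrl in log2(CPM + 0.5) was 0.76 within number 2 and -0.41 within number 1, so the same labels differed in opposite directions in the 2 numbers. For SLC38A9 the same difference was 0.43 within number 2 and -0.34 within number 1. With 1 library of each label per number, the difference between the numbers was not tested.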

How the results depend on the processing

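No label comparison called a family member under any setting. With the replicate block, edgeR called 1 gene of all tested for shALKBH5 against shCtrl and 1 for ALKBH5 rescue against shCtrl (0.0069% each), against 0 without it. Under the block, 4 members had an unadjusted edgeR p under 0.05 for shALKBH5 against shCtrl (10.8%, against 2.4% of all genes). These were SLC6A20, SLC43A2, SLC7A11 and SLC36A4, and none passed adjustment. Of these, SLC6A20 passed the low-count filter only through its shALKBH5 libraries, where it was high. Leaving out 1 library at a time moved the number comparison between 3909 and 6799 genes and 10 and 18 members called. Without the low-count filter SLC7A5 stood at 0.017 for ALKBH5 rescue against shCtrl, against -0.017 with it.

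Leaving out libraries also turned the sign of small label differences, none of them called. These fits have no block, so a group that loses a library keeps a single number and part of the number difference enters its value; within a number SLC7A5 differed by -0.0429 and -0.0348 for shALKBH5 over shCtrl. Lowest and highest log2 fold changes follow. For ALKBH5 rescue against shALKBH5 they were -0.48 and 0.91 for SLC1A1, -0.22 and 0.38 for SLC15A2, -0.21 and 0.29 for SLC7A7, -0.23 and 0.26 for SLC3A2, and -0.69 and 0.69 for SLC7A5. For shALKBH5 against shCtrl they were -0.71 and 0.62 for SLC7A5, -0.21 and 0.018 for SLC43A3, -0.24 and 0.0086 for SLC7A7, and -0.23 and 0.035 for SLC3A2. For ALKBH5 rescue against shCtrl they were -0.32 and 0.17 for SLC3A2, -0.72 and 0.64 for SLC7A5, -0.042 and 0.46 for SLC36A4, -0.97 and 0.36 for SLC6A12, -0.28 and 0.059 for SLC36A1, and -0.21 and 0.35 for SLC7A11. In the number comparison SLC7A11 ranged between -0.023 and 0.29. Its difference of number 2 over number 1 in log2(CPM + 0.5) was 0.55 in ALKBH5 rescue, 0.01 in shALKBH5 and -0.06 in shCtrl. The value thus depended on which label lost a library, and why the labels differ in this was not tested. Depth limits the low genes: below 1 CPM a library holds few counts. Genes removed by the filter of 1 CPM in 2 libraries, SLC6A16 among them, have no value under it. The replicate block changed no call of a member, but narrowed the label errors (SLC7A5, shALKBH5 against shCtrl: SE 0.0944 with it and 0.583 without).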
